A study of Homo sapiens with 4 samples.

Results

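A group of 10 genes of the telomerase enzyme and of the proteins that accompany it at chromosome ends were followed in nuclei of H9 cells, an established line of human primed pluripotent stem cells. The genes were chosen by name, for their place in the enzyme or beside it, with earlier results of these data known. They are the telomerase RNA TERC, the catalytic subunit gene TERT, the H/ACA protein genes DKC1, NOP10, NHP2 and GAR1, the Cajal body factor gene WRAP53 and the shelterin genes TERF1, TERF2 and TERF2IP. All 10 were counted in every library, out of 33634 gene symbols with a count in any of them. The libraries came from the optimisation of scMTR-seq, a method that reads histone modifications and RNA from the same nuclei, and they address whether reverse transcription (RT) should come before or after the cutting of chromatin by Tn5.

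There were 4 libraries with 1 per condition. Post RNA and DNA and Post RNA only are labelled Post, which in the study means RT after tagmentation by Tn5. Pre RNA and DNA and Pre RNA only are labelled Pre, which means RT before it. The RNA and DNA libraries came from nuclei in which H3K27me3 and H3K27ac were also profiled with antibodies bound to protein A-Tn5, and the RNA only libraries from nuclei with no DNA profile. Whether the RNA only nuclei went through the tagmentation steps is not stated. All nuclei shared formaldehyde fixation and RT with an oligo(dT) primer, and all came from 1 line, so the values describe H9 nuclei and not whole cells or other lines.

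Telomerase copies a short stretch of its own RNA onto chromosome ends, which balances the loss of telomeric DNA at each round of replication. TERC carries that template, TERT is the reverse transcriptase that reads it, and dyskerin (DKC1) with NOP10, NHP2 and GAR1 bind the H/ACA domain of TERC and keep the RNA stable. WRAP53 encodes TCAB1, which brings the particle to Cajal bodies, and shelterin coats the telomere and controls access to it. Pluripotent stem cells are known for active telomerase, whereas most differentiated cells keep TERT off. Mature TERC ends without a poly(A) tail, although tailed forms exist as intermediates of its maturation.

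The template and the end of TERC are shown because an oligo(dT) primer needs a run of A, and TERC differs in this from the 9 mRNAs. The RefSeq RNA has 451 bases, lies on the minus strand of chromosome 3 of GRCh38 from 169764610 to 169765060, and forms a single exon. Capitals mark the 11 template bases at positions 46 to 56, which are complementary to the telomeric repeat, in the first sequence, and the ACA box at positions 446 to 448, near the 3′ end, in the second.
TERC bases 1 to 100 (chr3:169764961-169765060): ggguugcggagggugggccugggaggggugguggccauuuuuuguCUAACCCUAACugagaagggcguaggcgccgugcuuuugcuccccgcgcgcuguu
TERC bases 352 to 451 (chr3:169764610-169764709): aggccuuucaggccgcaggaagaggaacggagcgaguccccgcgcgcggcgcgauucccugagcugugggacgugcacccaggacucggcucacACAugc
The printed RNA ends in UGC with no tail, its longest run of A is 6 bases, and its GC content is 67.4%. GENCODE 44 gives TERC 541 bases, with 90 more at the 3′ end, in which the longest run of A is 3 bases.

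Each library had its own RT primer, with the library's 5-base RT number in capitals, 8 random bases after it and then 15 T, the first of them carrying biotin.
Post RNA and DNA: aggccagagcattcgTGTGAnnnnnnnn
Post RNA only: aggccagagcattcgGTCGAnnnnnnnn
Pre RNA and DNA: aggccagagcattcgCCTAAnnnnnnnn
Pre RNA only: aggccagagcattcgAGCAAnnnnnnnn
Outside the RT number and the random bases the primers are the same, so all 4 libraries primed on A through the same 15 T.

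The deposited values are counts of reads per gene after removal of duplicates, and the totals lay between 6368721 and 10089552. Levels below are RPM, counts divided by the total of the library and scaled to 1000000, with exact 95% Poisson intervals in brackets, and ratios have exact 95% intervals. Both cover counting error only, because no condition was repeated. Post RNA only stood apart: it had the lowest total, and 6 genes named FP236383 or FP671120 held 34.8% of its counts, against 10.7 to 15.8% in the other libraries. The median log2 ratio over the 11564 genes averaging at least 10 RPM was −0.10 for Post over Pre in the RNA and DNA pair, −0.45 in the RNA only pair, 0.39 for RNA and DNA over RNA only in Post, and 0.03 in Pre. All log2 ratios of Post over Pre and of RNA and DNA over RNA only below are given relative to these medians unless called plain. The median gene was thus lower in RPM in Post RNA only, which bears on every RPM of that library. The 12 markers of primed pluripotent stem cells all had means of at least 10 RPM, with sums of 2268 to 3174 RPM. Markers of endoderm, mesoderm, trophectoderm and neural cells summed to at most 8.33 RPM each in any library (HAND1 had no row), and 4 fibroblast markers summed to 28.1 to 40.6 RPM, mostly from COL1A2. In bulk nuclei, fewer cells of a type and less RNA per nucleus cannot be told apart.

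TERC was counted at low depth in every library. It had 57 counts, or 5.65 RPM (4.28 to 7.32), in Post RNA and DNA, and 48 counts, or 7.54 RPM (5.56 to 9.99), in Post RNA only. Pre RNA and DNA held 32 counts, or 3.57 RPM (2.44 to 5.04), and Pre RNA only held 29 counts, or 3.09 RPM (2.07 to 4.44). Both Post libraries were thus above both Pre libraries. The interval of Post RNA only did not overlap that of either Pre library, whereas that of Post RNA and DNA overlapped both.

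TERT, the reverse transcriptase of telomerase, had 25.7 RPM (22.6 to 29.0) in Post RNA and DNA and 13.8 (11.1 to 17.0) in Post RNA only. Its level in the Pre libraries was 27.7 RPM (24.3 to 31.3) with DNA profiling and 26.4 (23.3 to 29.95) without it. Post RNA only was the low library, and the other libraries had overlapping intervals. TERT lies on chromosome 5 from 1253147 to 1295068, on the minus strand, with 16 exons.

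**Figure D1:**
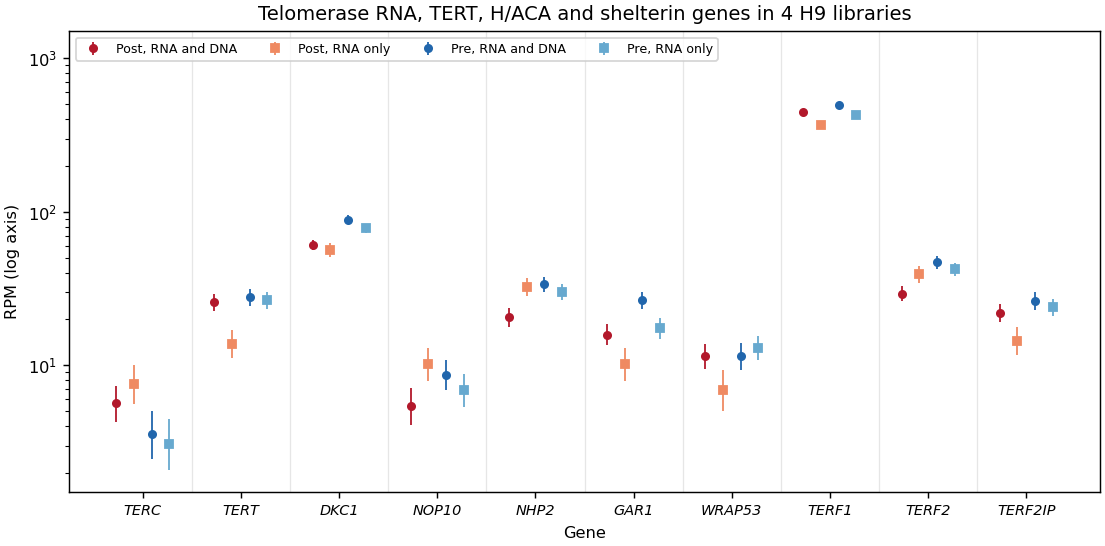
Level of each member in each library in RPM, on a log axis, as points with exact 95% Poisson intervals (counting error only, 1 library per condition). TERF1 lies between 365 and 493 RPM in the 4 libraries, and TERC is the only member with both Post libraries above both Pre libraries.

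The mRNAs of the 4 H/ACA proteins differed in their order over the libraries. DKC1, which encodes the pseudouridine synthase dyskerin, had 60.8 RPM (56.0 to 65.8) in Post RNA and DNA and 56.5 (50.8 to 62.7) in Post RNA only. In Pre RNA and DNA the level was 88.9 RPM (82.9 to 95.3), and in Pre RNA only 77.9 RPM (72.4 to 83.8). Both Post libraries lay below both Pre libraries in RPM for DKC1, with no overlap of intervals. Relative to the all-gene median, its log2 ratio of Post over Pre in the RNA only pair was −0.01 (−0.19 to 0.18). DKC1 lies on chromosome X from 154762742 to 154777689, and the genes SNORA36A, SNORA56 and MIR664B lie within it on the same strand.

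GAR1 encodes the subunit that joins the mature particle in place of the assembly factor NAF1. It had 15.9 RPM (13.5 to 18.5) in Post RNA and DNA, 10.2 RPM (7.88 to 13.0) in Post RNA only, 26.45 (23.2 to 30.04) in Pre RNA and DNA and 17.5 (14.9 to 20.4) in Pre RNA only. In RPM, both Post libraries were below both Pre libraries, although the interval of Post RNA and DNA overlapped that of Pre RNA only. Relative to the all-gene median, the log2 ratio of Post over Pre in the RNA only pair was −0.32 (−0.76 to 0.10). GAR1 lies on chromosome 4 from 109815510 to 109824740.

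NHP2, an RNA-binding core subunit, had 20.5 RPM (17.8 to 23.5) in Post RNA and DNA, 32.5 RPM (28.2 to 37.2) in Post RNA only, 33.8 (30.1 to 37.8) in Pre RNA and DNA and 30.1 (26.7 to 33.8) in Pre RNA only. Post RNA and DNA was the low library here, and the other libraries overlapped. NOP10, the smallest of the core proteins, had 5.45 RPM (4.11 to 7.10), 10.2 RPM (7.88 to 13.0), 8.71 RPM (6.88 to 10.9) and 6.93 RPM (5.35 to 8.83) in the same order of libraries. It was also lowest in Post RNA and DNA, but that interval overlapped those of both Pre libraries. NHP2 lies on chromosome 5 from 178149463 to 178153894 and NOP10 on chromosome 15 from 34339159 to 34343180.

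WRAP53 had 11.5 RPM (9.5 to 13.8) in Post RNA and DNA, 6.91 RPM (5.02 to 9.28) in Post RNA only, 11.5 (9.38 to 13.9) in Pre RNA and DNA and 13.0 (10.8 to 15.5) in Pre RNA only. As for TERT, Post RNA only was the low library in RPM and the others overlapped. Relative to the all-gene median, the log2 ratio of WRAP53 for Post over Pre in the RNA only pair was −0.46 (−0.99 to 0.05). The gene lies on chromosome 17 from 7686071 to 7703502.

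Of the shelterin genes, TERF1 encodes TRF1, which binds double-stranded telomeric repeats, and had 446 RPM (433 to 459) in Post RNA and DNA, 365 RPM (351 to 381) in Post RNA only, 493 (478 to 508) in Pre RNA and DNA and 425 (412 to 438) in Pre RNA only. TERF2 encodes TRF2, which protects the end from being read as a break. It had 29.3 RPM (26.1 to 32.9) in Post RNA and DNA, 39.1 RPM (34.4 to 44.3) in Post RNA only, 47.0 (42.6 to 51.7) in Pre RNA and DNA and 42.1 (38.1 to 46.5) in Pre RNA only. TERF2IP encodes RAP1, the partner of TRF2, and had 21.9 RPM (19.1 to 24.99), 14.4 RPM (11.7 to 17.7), 26.3 RPM (23.1 to 29.9) and 23.9 RPM (20.9 to 27.2) in the same order. In RPM, Post RNA and DNA was the low library for TERF2, and Post RNA only for TERF1 and TERF2IP. Relative to the all-gene median, TERF1 was higher in Post in the RNA only pair, with a log2 ratio of Post over Pre of 0.24 (0.16 to 0.31). TERF2IP had −0.27 there.

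Levels were compared between genes only per kb of the GENCODE canonical transcript. TERF1 led in every library, at 134, 110, 148 and 128 RPM per kb in Post RNA and DNA, Post RNA only, Pre RNA and DNA and Pre RNA only. NHP2 and DKC1 followed in every library, between 22.9 and 43.4 RPM per kb, and their intervals overlapped in both RNA and DNA libraries. TERT and WRAP53 were the lowest pair in both Post libraries, at 6.36 and 6.57 RPM per kb in Post RNA and DNA and 3.42 and 3.95 RPM per kb in Post RNA only, with overlapping intervals. TERC ranked 6 of 10 in Post RNA and DNA (10.4 RPM per kb, 7.91 to 13.5) and 5 of 10 in Post RNA only (13.9, 10.3 to 18.5). It ranked 9 of 10 in Pre RNA and DNA (6.60, 4.52 to 9.32) and 10 of 10 in Pre RNA only (5.72, 3.83 to 8.21), where its interval overlapped that of TERT in both. The length used for TERC was 541 bases. With the 451 bases of RefSeq its values per kb would be higher, and its ranks could change. Nuclear RNA can hold intron reads, which a spliced length leaves out, and whether introns were counted is not given in the sources used here. The longest run of A in the transcripts was 12 bases in TERF1, 8 in TERF2 and TERF2IP, and 4 to 6 in the other members.

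The first comparison asks how levels of these transcripts differed between Post and Pre, with the RNA and DNA pair and the RNA only pair each taken by itself. TERC was the only member whose interval lay above the all-gene median in both pairs. Its relative log2 ratio of Post over Pre was 0.76 (0.11 to 1.43), or 1.69-fold, in the RNA and DNA pair and 1.74 (1.04 to 2.46), or 3.34-fold, in the RNA only pair. Of the 21700 genes averaging at least 1 RPM, 2.82% were above in both pairs. TERC averaged 4.96 RPM and NOP10 7.82 RPM, so both are below the minimum of 10 RPM that the counts of genes at least 2-fold apart use, and 8 members passed it.

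Among those 8 members, 0 were at least 2-fold higher or lower in either pair. Over all genes past the minimum, the share at least 2-fold higher in Post was 0.208% for the RNA and DNA pair and 1.46% for the RNA only pair, and the share lower by as much was 0.147% and 0.138%. In both pairs at once, 0.19% of genes were higher and 0.00865% lower. With the lower minimum of 1 RPM, TERC and NOP10 were at least 2-fold higher in the RNA only pair (4.81% of genes), NOP10 by a relative log2 ratio of 1.01 that lies at the limit.

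In the RNA and DNA pair, DKC1, NHP2, GAR1 and TERF2 were below the all-gene median beyond counting error, and 0 of the 8 members were above it. Their relative log2 ratios were −0.45 (−0.61 to −0.30), −0.62 (−0.89 to −0.36), −0.64 (−0.94 to −0.35) and −0.58 (−0.80 to −0.36). Of all genes past the minimum, 19.4% were below and 17.9% above, and the central 95% of genes ran from −0.58 to 0.47. By point value NHP2, GAR1 and TERF2 lie beyond the lower edge of that range, TERF2 only just (−0.583 against −0.578). Their intervals all reach across the edge. TERT had −0.01 (−0.27 to 0.24), WRAP53 0.10 (−0.30 to 0.49), TERF1 −0.05 (−0.11 to 0.01) and TERF2IP −0.17 (−0.44 to 0.10), which were not distinguishable from the median at this depth. The median over the 8 members was −0.31.

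In the RNA only pair, NHP2, TERF1 and TERF2 were above the all-gene median and TERT below it. NHP2 had a relative log2 ratio of 0.57 (0.30 to 0.83), TERF2 0.35 (0.11 to 0.58), TERF1 0.24 (0.16 to 0.31) and TERT −0.48 (−0.85 to −0.12). Over all genes past the minimum 20.3% were above and 19.8% below, beside 3 of 8 and 1 of 8 members. The central 95% of genes ran from −0.59 to 0.82. Without subtraction of the median, the plain log2 ratios were −0.22 (−0.29 to −0.14) for TERF1, −0.11 (−0.34 to 0.13) for TERF2 and 0.11 (−0.15 to 0.38) for NHP2, so all 3 calls above the median rest on that step. DKC1 had −0.01 (−0.19 to 0.18), GAR1 −0.32 (−0.76 to 0.10), WRAP53 −0.46 (−0.99 to 0.05) and TERF2IP −0.27 (−0.64 to 0.09). The median over the 8 members was −0.14.

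**Figure D2:**
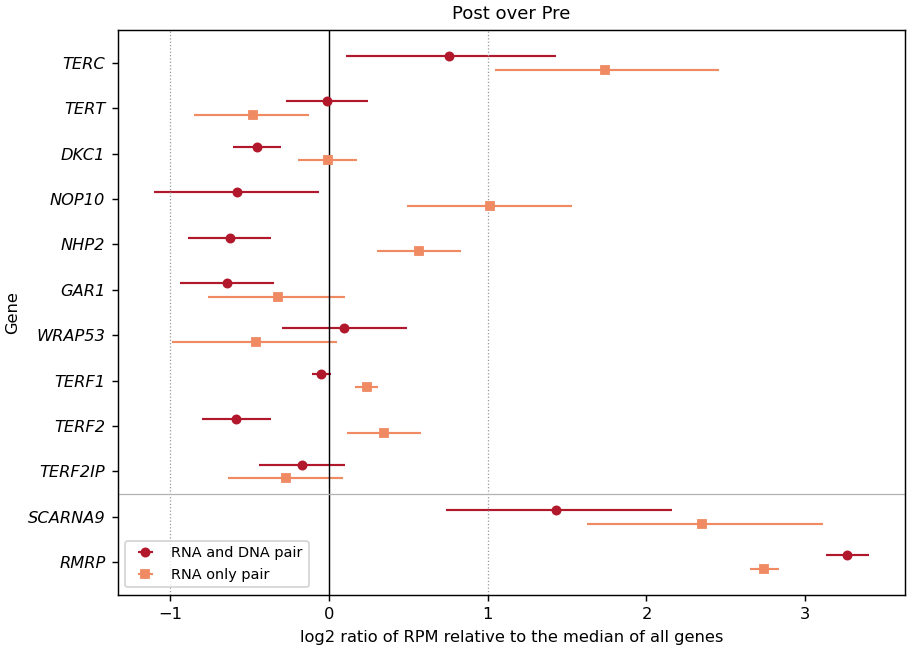
Relative log2 ratio of Post over Pre for each member and for SCARNA9 and RMRP, with exact 95% intervals, in the RNA and DNA pair (circles) and the RNA only pair (squares). The solid line is the all-gene median and dotted lines mark 2-fold. TERC lies to the right of the median in both pairs, and NOP10, NHP2 and TERF2 lie left of it in the RNA and DNA pair and right of it in the RNA only pair.

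NOP10, NHP2 and TERF2 were below the median in the RNA and DNA pair and above it in the RNA only pair, each beyond counting error, as were 3.55% of genes averaging at least 1 RPM. That share was not counted for genes averaging at least 10 RPM, to which NHP2 and TERF2 belong. Those genes leave the median more often. In the RNA and DNA pair 19.4% of them were below, against 12.2% at the minimum of 1 RPM. NOP10 had −0.58 (−1.10 to −0.06) and 1.01 (0.49 to 1.53) in the 2 pairs. The difference between pairs, RNA only minus RNA and DNA, was 1.59 (0.89 to 2.29) for NOP10, 1.19 (0.83 to 1.56) for NHP2 and 0.93 (0.62 to 1.24) for TERF2 on the log2 scale. Intervals of these differences are normal approximations from the counts, and not exact. For TERT the same difference was −0.47 (−0.90 to −0.04), and for TERC 0.98 (0.07 to 1.89). TERC had plain log2 ratios of 0.66 in the RNA and DNA pair and 1.285 in the RNA only pair, and TERT −0.11 and −0.94. Subtraction of the medians thus widened the difference of TERC and narrowed that of TERT. Intervals of plain differences were not computed, so whether TERC differs between the pairs without that step was not tested. In plain log2 ratios over the same 2 pairs, NOP10 had −0.68 and 0.56, NHP2 had −0.72 and 0.11, and TERF2 had −0.68 and −0.11, so that without the subtraction NOP10 alone of the 3 was on opposite sides of 0 beyond counting error. These intervals hold counting error alone, and with 1 library per condition the spread between libraries cannot be measured. The 12 markers of primed pluripotent cells had a median relative log2 ratio of −0.23 in the RNA and DNA pair and 0.23 in the RNA only pair, with 7 below and 1 above in the first and 3 below and 7 above in the second. Their part in these values was not tested. With totals that leave out the FP236383 and FP671120 genes, the all-gene median log2 ratio was −0.01 in the RNA and DNA pair and −0.02 in the RNA only pair. Ratios relative to that median cannot test the part of these genes, because a change of totals cancels in them.

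**Figure D3:**
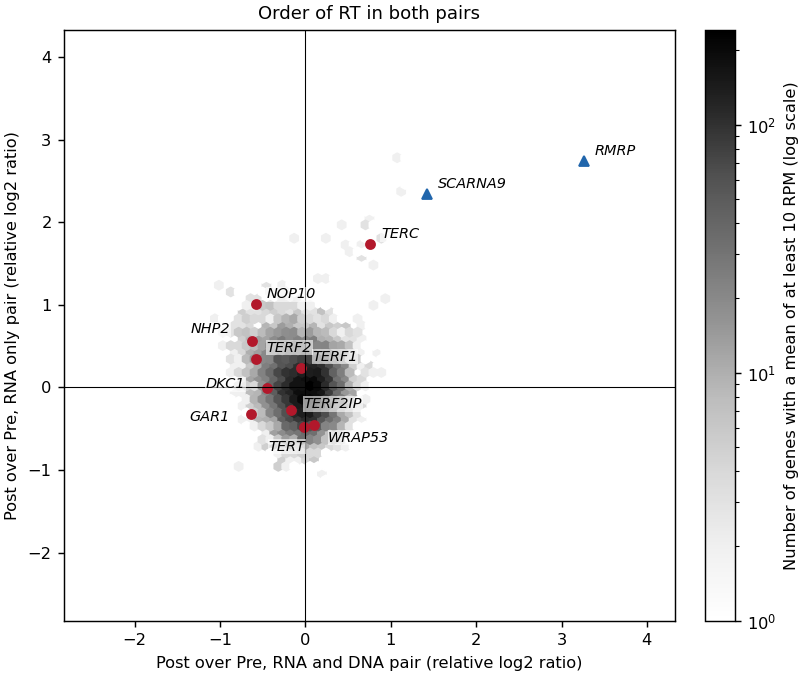
Relative log2 ratio of Post over Pre in the RNA and DNA pair (x axis) against the RNA only pair (y axis), for the 11564 genes averaging at least 10 RPM (grey, number of genes per bin on a log scale), the members (red circles) and SCARNA9 and RMRP (blue triangles). TERC lies at 0.76 and 1.74 and SCARNA9 at 1.43 and 2.35. TERC, NOP10 and SCARNA9 average under 10 RPM and are not among the grey genes, whose ratios have less counting error.

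Small noncoding RNAs were set beside TERC. SCARNA9, a Cajal body RNA of the C/D box class, was the only row with a SNORA or SCARNA name. It had 6.74 RPM in Post RNA and DNA, 9.11 RPM in Post RNA only, 2.68 RPM in Pre RNA and DNA and 2.45 RPM in Pre RNA only, with relative log2 ratios of Post over Pre of 1.43 (0.74 to 2.16) and 2.35 (1.63 to 3.11) in the RNA and DNA pair and the RNA only pair. RMRP, the RNA of the mitochondrial RNA processing enzyme, was the only one of 13 small RNAs without a poly(A) tail that had a row, and had 3.27 and 2.74 in the same order. TERC, SCARNA9 and RMRP thus had higher levels in Post in both pairs, with TERC the least apart and its intervals overlapping those of SCARNA9. Among all genes averaging at least 10 RPM, the closest to TERC over the 4 libraries were HIST4H4, HIST1H2AD, HIST1H2AH, SNHG3 and HIST1H4E, at distances of 0.12 to 0.24 in centred log2(RPM + 1), where the median gene was at 1.21. All but SNHG3 encode core histones, and SNHG3 is a host gene of small nucleolar RNAs. SNHG3 had 130 RPM in Post RNA and DNA, 170 RPM in Post RNA only, 78.9 RPM in Pre RNA and DNA and 83.8 RPM in Pre RNA only. The closest genes to TERT were ALKBH1, B4GALNT3, JAKMIP1, RNF213-AS1 and IFNAR2, at 0.01 to 0.03, where the median gene was at 0.45. The distance to TERT was 0.21 for TERF2IP and 0.23 for WRAP53, the closest members, and 1.56 for TERC, the farthest. All these distances rest on the same 4 libraries and describe them only.

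The ratio of TERC to its partners does not depend on how libraries are scaled. TERC made up 18.0% (14.0 to 22.7) of the counts of TERC and TERT together in Post RNA and DNA and 35.3% (27.3 to 43.9) in Post RNA only, against 11.4% (7.95 to 15.7) in Pre RNA and DNA and 10.5% (7.12 to 14.7) in Pre RNA only. Against the 4 H/ACA mRNAs, TERC held 5.22% (3.98 to 6.71) and 6.44% (4.79 to 8.45) of the joint counts in Post RNA and DNA and Post RNA only, and 2.21% (1.52 to 3.11) and 2.28% (1.53 to 3.26) in Pre RNA and DNA and Pre RNA only. The share against the H/ACA mRNAs was higher in both Post libraries than in both Pre libraries with no overlap of the Clopper-Pearson intervals. The share against TERT had overlapping intervals in the RNA and DNA pair. These shares move with the partners as well as with TERC. In the RNA and DNA pair, plain log2 ratios of Post over Pre were 0.66 for TERC and −0.55 to −0.74 for the H/ACA mRNAs. The RNA only pair had 1.285 for TERC, −0.46 for DKC1, −0.78 for GAR1, 0.11 for NHP2, 0.56 for NOP10 and −0.94 for TERT.

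Within the H/ACA mRNAs, Post RNA only had the highest shares of NHP2 and NOP10 and the lowest of GAR1. NHP2 made up 20% (17.6 to 22.6) of their counts in Post RNA and DNA, 29.7% (26.3 to 33.2) in Post RNA only, 21.4% (19.3 to 23.6) in Pre RNA and DNA and 22.7% (20.4 to 25.1) in Pre RNA only. NOP10 made up 5.31% (4.03 to 6.86), 9.33% (7.27 to 11.7), 5.51% (4.38 to 6.83) and 5.23% (4.06 to 6.62) in the same order, and GAR1 15.5% (13.3 to 17.8), 9.33% (7.27 to 11.7), 16.7% (14.8 to 18.8) and 13.2% (11.4 to 15.2). The interval of Post RNA only was apart from those of all other libraries for NHP2 and NOP10, and for GAR1 it overlapped that of Pre RNA only. DKC1 held the largest share of counts (not per length) in each, between 51.6 and 59.2%. Of the 3 shelterin mRNAs, TERF1 made up 86.6 to 89.7% of the counts in every library, and TERF2 5.90% (5.27 to 6.59) in Post RNA and DNA, against 8.30 to 9.33% in the other libraries.

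**Figure D4:**
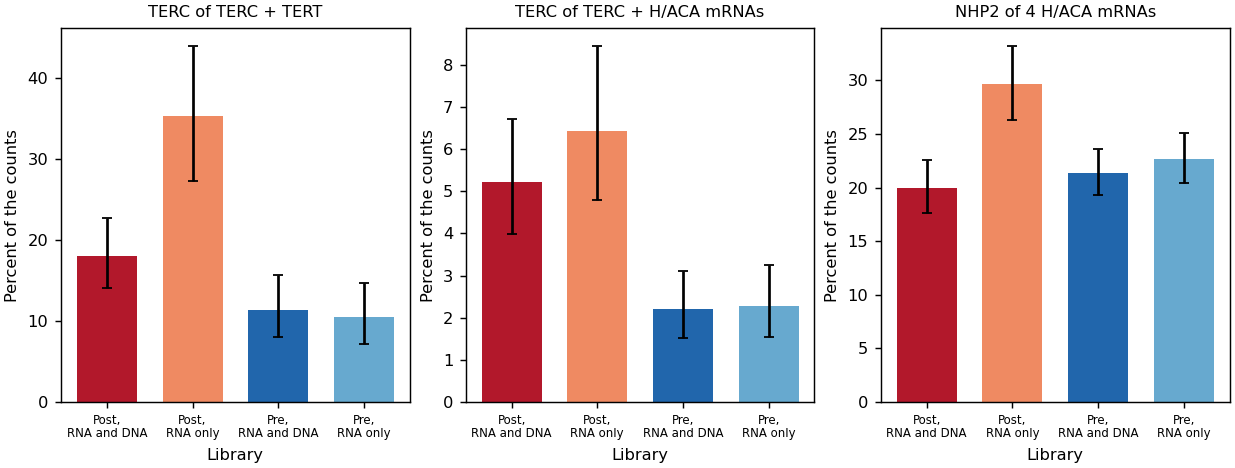
Percent of the counts of a set held by 1 gene in each library, with Clopper-Pearson 95% intervals as error bars and axes that start at 0. TERC takes 35.3% of the counts of TERC and TERT in Post RNA only and 10.5% in Pre RNA only, and NHP2 takes 29.7% of the H/ACA protein mRNAs in Post RNA only and 20 to 22.7% in the other libraries.

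The second comparison asks whether profiling H3K27me3 and H3K27ac in the same nuclei went with other levels of these transcripts. It uses the same 4 libraries as the first, so the 2 sets of ratios are not independent. In Post, NHP2 was the only one of 8 members at least 2-fold apart, with a relative log2 ratio of RNA and DNA over RNA only of −1.05 (−1.34 to −0.77), or 0.481-fold. Over all genes 2.54% were at least 2-fold lower and 0.104% higher. NOP10, below the minimum, had −1.30 (−1.84 to −0.76). With the minimum of 1 RPM, NOP10 and NHP2 were at least 2-fold lower, as were 3.82% of genes.

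TERF2 (−0.81, −1.05 to −0.56), DKC1 (−0.29, −0.48 to −0.10) and TERF1 (−0.10, −0.18 to −0.03) were also below the all-gene median in Post, which makes 4 of 8 members with NHP2, against 21.5% of all genes. TERT was above it, at 0.50 (0.15 to 0.87), as were 19.3% of genes. The directions of DKC1 and TERF1 rest on the subtraction of the median, as their plain log2 ratios were 0.10 (−0.09 to 0.30) and 0.29 (0.22 to 0.36). TERC, below the minimum, had −0.81 (−1.39 to −0.22), which also rests on that step, with a plain log2 ratio of −0.42 (−0.99 to 0.17). GAR1 had 0.25 (−0.18 to 0.68), WRAP53 0.34 (−0.17 to 0.88) and TERF2IP 0.21 (−0.15 to 0.58). The markers of primed pluripotent cells had a median of −0.36, with 9 of 12 below, and their part was not tested.

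In Pre, no member was at least 2-fold apart, as were 0% of genes in the higher and 0.0173% in the lower direction. GAR1 had a relative log2 ratio of 0.57 (0.28 to 0.87), TERF1 0.19 (0.13 to 0.25) and DKC1 0.16 (0.02 to 0.31), so 3 of 8 members were above the median beyond counting error, against 7.48% of genes, and 0 were below it, against 7.1%. GAR1 lay beyond the central 95% of genes, which ended at 0.32, although its interval reached below that edge. The markers of primed pluripotent cells had a median of 0.12, with 6 of 12 above and 1 below, and their part was not tested. TERT had 0.04 (−0.22 to 0.30), TERC 0.18 (−0.59 to 0.96), NHP2 0.14 (−0.10 to 0.38), NOP10 0.30 (−0.19 to 0.80) and TERF2 0.13 (−0.07 to 0.33). WRAP53 had −0.20 (−0.60 to 0.19) and TERF2IP 0.11 (−0.15 to 0.39).

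**Figure D5:**
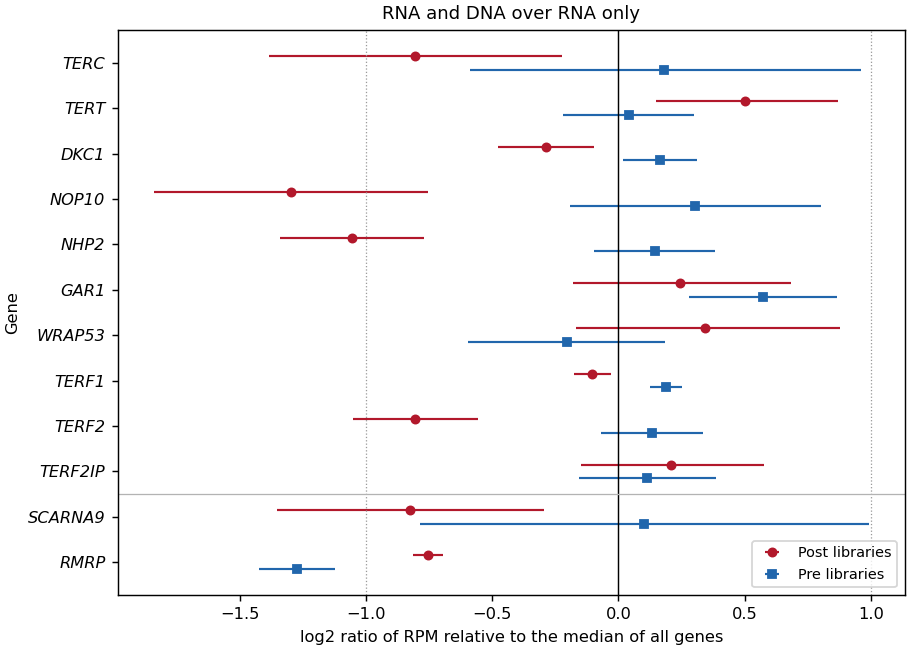
Relative log2 ratio of RNA and DNA over RNA only for each member and for SCARNA9 and RMRP, with exact 95% intervals, in the Post libraries (circles) and the Pre libraries (squares). NHP2 and NOP10 lie left of the 2-fold line in Post, at −1.05 and −1.30, and right of the median in Pre, at 0.14 and 0.30, with intervals that include it.

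Fits of both factors over the 4 libraries, which leave 1 residual degree of freedom, called 0 members at an adjusted p under 0.05. They take the effect of the order of RT as the same in both pairs, so opposite directions average out. NHP2, with −0.62 and 0.57 in the pairs, had −0.02 in edgeR over the genes averaging at least 10 RPM. The fits thus cannot decide about members that differ between the pairs. With edgeR over the genes averaging at least 10 RPM, 2 genes in all were called for the order of RT, and with DESeq2 26. Over the genes averaging at least 1 RPM, TERC had a log2 ratio of Post over Pre of 1.21 and the lowest adjusted p of the members in edgeR, 0.639. TERC and GAR1 then had unadjusted p-values under 0.05 in edgeR and TERC in DESeq2, as did 4.75% and 0.714% of the 21700 genes tested by each tool, and 0 of the 8 members with at least 10 RPM had one in either tool. For DNA profiling 0 genes were called by edgeR and 1 by DESeq2, and 0 members had an unadjusted p under 0.05 in either.

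Other genes of the pathway were read from lists. Of the 3 further shelterin genes, POT1, which binds the single-stranded overhang, and ACD, which encodes TPP1 and recruits telomerase, passed 10 RPM, and TINF2 did not. ACD had relative log2 ratios of Post over Pre of −0.27 (−0.72 to 0.17) in the RNA and DNA pair and 0.72 (0.27 to 1.18) in the RNA only pair, and POT1 0.20 (−0.01 to 0.41) and 0.48 (0.23 to 0.72). In Post, RNA and DNA over RNA only was −0.98 (−1.45 to −0.51) for ACD, close to the values of NHP2 and TERF2.

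The 6 genes of H/ACA assembly all passed, with 0 above and 3 below the all-gene median in the RNA and DNA pair, and 1 above and 1 below in the RNA only pair. Of all genes past the minimum, 17.9% were above and 19.4% below in the RNA and DNA pair. In the RNA only pair 20.3% were above and 19.8% below. NOLC1, a chaperone of H/ACA particles, had −0.53 (−0.65 to −0.41) and −0.17 (−0.31 to −0.02) in the pairs, below the median in both, as DKC1 was in the first. RUVBL1, an ATPase of the assembly machinery, had −0.20 and 0.05, and PIH1D1, a member of the R2TP complex, −0.34 and 0.32. Of 13 genes for maturation and decay of TERC, 12 passed, with 2 above and 3 below in the RNA and DNA pair and 3 above and 2 below in the RNA only pair. NCBP1, a subunit of the nuclear cap-binding complex, had 0.32 (0.16 to 0.49) and 0.26 (0.06 to 0.46). DHX36, a helicase that binds the G-rich 5′ end of TERC, had −0.24 (−0.35 to −0.14) and 0.18 (0.05 to 0.30), RBM7 of the nuclear exosome targeting complex −0.32 and 0.35, and MTREX, the exosome's helicase, −0.04 and −0.03.

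Of 7 genes for CST and fill-in of the C-strand, 4 passed, with 2 above and 1 below in the RNA and DNA pair and 0 above and 1 below in the RNA only pair. POLA1, the catalytic subunit of DNA polymerase alpha, had 0.14 and 0.00, the primase subunit gene PRIM2 0.20 and −0.07, and POLA2 −0.10 and −0.50 (−0.74 to −0.26). Of 18 other telomere factors, 16 passed, with 5 above and 3 below in the RNA and DNA pair and 3 above and 2 below in the RNA only pair. Beside the counts of both lists stand 17.9% of all genes above and 19.4% below in the RNA and DNA pair. For the RNA only pair the shares were 20.3% and 19.8%. ATRX, a chromatin remodeller, had 0.10 and 0.12, and RIF1, a factor of replication timing, −0.00 and 0.14. DAXX, the histone chaperone that works with ATRX, had −0.58 (−0.85 to −0.31) and 0.21 (−0.09 to 0.51), and the helicase gene RTEL1 0.31 and −0.21. The medians of these lists lay between −0.24 and 0.05 for the RNA and DNA pair and between −0.04 and 0.03 for the RNA only pair, apart from shelterin with 2 genes, where they were −0.04 and 0.60.

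Several members overlap a gene on the other strand, and the strand setting of the counting is not given in the sources used here, so reads of the shared bases may not be told apart. NHP2 shares 1106 bases with RMND5B, which had relative log2 ratios of Post over Pre of −0.24 (−0.40 to −0.08) and 0.01 (−0.18 to 0.21) in the RNA and DNA pair and the RNA only pair. TERF2, on chromosome 16 from 69355567 to 69408571, shares 10170 bases with CYB5B, which had −0.14 and −0.15. TERF2IP, on chromosome 16 from 75647773 to 75761872, shares 871 bases with KARS, which had −0.52 and −0.02. On the same strand, TERC shares 438 bases with the annotated gene Telomerase-vert, which had no row. NHP2 and TERF1 also have processed copies elsewhere in the genome (NHP2P1 and NHP2P2, and TERF1P1 to TERF1P7), which have no row in the tables used here, so how reads shared with them were counted is not known.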

How the data were processed

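The authors deposited raw counts of reads per gene symbol after removal of duplicates, aligned to GRCh38. Per the labels, STAR 2.7.11b, Bowtie2 2.5.3, Bowtie 1.3.1, SAMtools and Trim Galore 0.6.10 were used. The methods describe single-cell processing with deduplication by position and molecular identifier, and whether every step was used here is not stated. The gene annotation and the strand setting are not given in the sources used here. The tables hold 60 more barcode columns with no labelled condition, which were left out.

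Counts were divided by each library's total. The members and the lists of related genes were chosen with earlier results of these data known. All 10 members were named, and in each further list the 2 genes with the highest mean RPM and those with the largest and smallest ratio of Post over Pre in the pair nearer 0, plus genes that overlap a member (1 of them is not reported here) and the 5 closest to TERC and TERT. Ratios are relative to the median of genes averaging at least 10 RPM, and 0.5 counts stood in for a count of 0. Genes at least 2-fold apart were counted. The alternatives were other scalings, filters, pseudocounts and folds, thinning, and additive fits with edgeR 4.0.16 and DESeq2 1.42.0 (Benjamini-Hochberg adjustment). The fits with a minimum of 1 RPM were added after the data were seen. Calling steps were tested on simulated Poisson counts with the same fold in both pairs. The simulation held no spread between libraries beyond counting error, so it does not show how the steps fare with such spread. Places are from GENCODE 44, and the TERC sequence is RefSeq's, read from GRCh38. R 4.3.3, Python 3.11.15, scipy 1.17.1, pandas 2.3.3, numpy 2.4.6 and matplotlib 3.10.9 were used.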

Additional observations from a re-analysis of the deposited data

Results flagged for a closer look

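For the order of RT, 3 members lay on opposite sides of the all-gene median in the 2 pairs of libraries, beyond counting error in each pair. Of all genes averaging at least 1 RPM, 3.55% lay on opposite sides in the same directions under that rule. The share was not counted for genes averaging at least 10 RPM, to which NHP2 and TERF2 belong. The log2 ratio of Post over Pre in the RNA only pair minus that in the RNA and DNA pair was 1.59 for NOP10, 1.19 for NHP2 and 0.93 for TERF2. Each was lower in Post in the RNA and DNA pair and higher in Post in the RNA only pair, relative to that median and beyond counting error. The difference between the pairs was not tested against the spread between libraries, because each condition is 1 library. NOP10 rests on 55 counts in Post RNA and DNA, 65 in Post RNA only, 78 in Pre RNA and DNA and 65 in Pre RNA only. In plain log2 ratios, with no median subtracted, the RNA only pair had 0.56 for NOP10, 0.11 for NHP2 and −0.11 for TERF2, and the RNA and DNA pair −0.68, −0.72 and −0.68. The pair without Post RNA only, the library that stood apart, gave −0.58 for NOP10, −0.62 for NHP2 and −0.58 for TERF2.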

How the results depend on the processing

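Leaving out a library was not possible as an alternative, because each condition is 1 library. No paired analysis was possible because the labels give no replicate numbers, and 1 library per condition leaves no pairs of replicates to block on. Changes of library scaling cancel in ratios taken relative to the all-gene median, so they are no check of the single members. Of their values, 11 moved beyond counting error, 10 of them without subtraction of that median and 1 (TERC in the RNA only pair, 1.02) with a pseudocount of 5 RPM, and 4 changed direction. Without subtraction of the all-gene median, Post over Pre in the RNA only pair became −0.22 for TERF1 and −0.11 for TERF2, and RNA and DNA over RNA only in Post became 0.10 for DKC1 and 0.29 for TERF1. The same setting took the median over members to −0.59 in the RNA only pair and 0.44 in Post, and left 0 members at least 2-fold apart in Post, as did a pseudocount of 5 RPM. At 1.5-fold, 2 members were apart in the RNA and DNA pair (NHP2 and GAR1) and 2 in Post (NHP2 and TERF2). The share of all genes was not counted at 1.5-fold or under the other alternatives given here, so these counts of members have no background beside them. With totals that leave out the 20 most abundant genes, NOP10 passed the minimum, which gave 1 member apart in the RNA only pair and 2 in Post (NOP10 and NHP2). With a minimum of 1 RPM and the median taken over those genes, 1 was apart in the RNA only pair (TERC, while NOP10 fell just short) and 2 in Post (NOP10 and NHP2), and the median over the members in Post was −0.19. TERC had 29 to 57 counts in each library and NOP10 55 to 78, and the interval of TERC in the RNA and DNA pair ran from 0.11 to 1.43.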
